A study of Mus musculus with 2 samples.

Results

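Complex I (NADH:ubiquinone oxidoreductase) and complex II (succinate dehydrogenase) are the enzymes through which NADH and succinate deliver electrons to ubiquinone in the respiratory chain. Their nuclear-encoded genes and assembly factors were taken as all protein-coding mouse genes with a symbol that begins with Nduf, with Sdha, Sdhb, Sdhc, Sdhd and Sdhaf1 to Sdhaf4. The rule uses names and no measured value, but it was set with earlier results of these data known. It gave 54 genes of the 15523 annotated genes with at least 1 read. They comprise 36 genes of complex I subunits, 8 complex I assembly factors (the Ndufaf genes), 4 complex II subunits and 4 complex II assembly factors. Ndufa4 and its paralog Ndufa4l2 were described apart, because Ndufa4 is now held to be a subunit of cytochrome c oxidase (complex IV). All 54 had at least 20 reads summed over both libraries, so none was lost to the filter used below.

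Interscapular brown adipose tissue, a fat depot between the shoulder blades that makes heat, was the source of native poly(A)+ RNA, which was read molecule by molecule on a nanopore. The mice were wild-type C57BL/6N males of 20 weeks, and 1 control and 1 cold library were made, each from 500 ng of poly(A)+ RNA. For the cold library, 3 mice were pooled after 24 h at 4 °C in single cages. Housing was at 22 to 24 °C, and how many mice the control library holds was not found. The treatment field of the control sample also describes the cold exposure, so its group rests on the treatment characteristic alone, and the extraction text names another fat depot than the tissue label. Depth was 1698124 reads for control and 1215617 for cold. With 1 library in each group there is no spread between animals and no test of the conditions is possible. Parentheses hold 95% intervals from read counting, which cover counting error only and set 1 library against the other.

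Complex I is an L-shaped enzyme of the inner mitochondrial membrane. Its matrix arm oxidizes NADH with a flavin and passes electrons along iron-sulfur clusters to ubiquinone, and its membrane arm pumps protons. The catalytic core is shared with bacteria and is encoded partly in the nucleus and partly in mitochondrial DNA (the mt-Nd genes), while the accessory subunits and the assembly factors, which build the enzyme but are not part of it, are all nuclear. Complex II is encoded in the nucleus throughout, joins the tricarboxylic acid cycle to the chain and pumps no protons. In brown fat the proton gradient made by the chain is dissipated by Ucp1 as heat.

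The tissue label was checked on marker genes. Ucp1, the uncoupling protein that defines brown adipocytes, had 14860 control and 14526 cold reads. The 10 brown adipocyte markers together took 1.44% of control and 1.91% of cold reads. Relative to control, after scaling, 6 of the 10 had an interval above a ratio of 1, 1 below and 3 neither, and 11.3% of all genes had one above. Elovl3, a fatty acid elongase, was among the higher with 180 and 731 reads, and Cox8b, a complex IV subunit, was the lower with 4164 and 2431. The 6 general adipocyte markers took 1.59% of control and 2.07% of cold reads. Of these 6, 3 had an interval below 1, 2 above and 1 neither, against 11.3% of all genes below and 11.3% above. Adipoq, with 921 and 490 reads, had the lowest ratio of them, and Fabp4, with 20610 and 20787, the highest. White adipocyte markers, which bear on the other depot named in the extraction text, took 0.0114% of control and 0.0334% of cold reads, with 3 of 4 intervals above 1 and that of Lep (36 and 5 reads) below. Skeletal muscle markers also differed: 22 of 22 with at least 20 summed reads had an interval above 1, against 11.3% of all genes, none of the 23 with reads was at 0 in either library, and together they took 0.0433% of control and 0.199% of cold reads. Muscle and white fat also express complexes I and II, and their part in the results below was not tested. In such bulk RNA, fewer cells of a type and less RNA per cell cannot be told apart.

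Before the read counts, the promoters of the members show what DNA letters these genes have in common. Windows of 300 bases, from 250 before the RefSeq start site to 50 bases from the start onward, were found for 47 of the 54 members and for 27025 genes in all. The letters GCGCANGCG, which match the binding motif of NRF1, a transcription factor known for nuclear respiratory genes, stood on either strand in 14 of 47 members, 29.8% (17.3 to 44.9), against 7.03% of all genes. The 9 letters AAGATGGCG of the YY1 motif stood in 6 members, 12.8% (4.83 to 25.7), against 1.64%. TCAAGGTCA, a motif of the estrogen-related receptors (ERR), and CCGGAAGTG, a motif of GABPA, were each found in 1 member (2.13%), against 0.466% and 2.25% of all genes. The windows of the members had a median GC content of 59.3%, against 52.8% over all windows, and NRF1 letters are rich in G and C. A match is a description of the sequence and not evidence of binding.

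Both Ndufb4 and Sdha carry the NRF1 letters 3 times each and are shown for that reason, with Sdhd as a complex II gene with 1 copy. Each line gives 29 bases from GRCm38.p6 (RefSeq) on the gene's strand, 5′ to 3′, with the match in capitals. Positions count from the RefSeq start site as 0. In the GENCODE annotation used for the counts, Ndufb4 begins at 37654453 and Sdha at 74350280, upstream of that site. The Ndufb4 matches at 79 and 22 bases and the Sdha match at 10 bases therefore lie inside the GENCODE gene.
Ndufb4, 191 bases before the start, chr16:37654541-37654569, minus strand: gagaagcagtGCGCACGCGcagaatacgc
Ndufb4, 79 bases before the start, chr16:37654429-37654457, minus strand: ccttgtgcgcGCGCAGGCGcacttcctga
Ndufb4, 22 bases before the start, chr16:37654372-37654400, minus strand: cctcatatccGCGCAGGCGcagatgtgcg
Sdha, 98 bases before the start, chr13:74350320-74350348, minus strand: cgtttacaggGCGCAGGCGcaccaccact
Sdha, 55 bases before the start, chr13:74350277-74350305, minus strand: ggggcgtgttGCGCAGGCGcagaatcttc
Sdha, 10 bases before the start, chr13:74350232-74350260, minus strand: gcgactcggtGCGCAAGCGcagtctgtcg
Sdhd, 79 bases before the start, chr9:50603910-50603938, minus strand: tcgctggggtGCGCACGCGcggtggcagc

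A pair of longer stretches, each the 120 bases before the start site, sets a gene with the letters beside one without. Ndufaf4 is an assembly factor with more scaled reads in the cold library, and its stretch holds overlapping matches on both strands. Ndufb8 is the complex I subunit gene with the most reads and one of those with the lowest ratios, and its stretch holds no 9-letter match.
Ndufaf4, chr4:24897963-24898082, plus strand: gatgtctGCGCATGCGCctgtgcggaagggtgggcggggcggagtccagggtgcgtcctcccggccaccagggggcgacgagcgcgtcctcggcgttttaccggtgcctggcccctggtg
Ndufb8, chr19:44555443-44555562, minus strand: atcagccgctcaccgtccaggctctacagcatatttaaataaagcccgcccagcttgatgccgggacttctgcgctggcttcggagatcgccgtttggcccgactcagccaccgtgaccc

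Subunit genes with and without the NRF1 letters overlapped in their ratios. The 8 complex I subunit genes with NRF1 letters had a median log2 ratio of cold to control of -0.16 (from -0.28 to 0.01). The 24 without had -0.21 (from -0.64 to -0.02). Whether the letters and the ratio are related was not tested. The YY1 matches had a different position. All 6 lay on the gene's own strand, beginning 10 to 35 bases after the start site. In 5 of them, Ndufa9, Ndufc1, Ndufs4, Ndufs6 and Ndufs7, the ATG inside the motif is the annotated start codon, the exception being Ndufaf8.

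Read counts were set side by side as a ratio of cold to control, after each library was scaled with edgeR's TMM factors (effective sizes of 1595479 and 1293824 reads). Complex I subunits together were lower in the cold library. Their 36 genes had 34327 control and 24048 cold reads, a summed ratio of 0.864 (0.850 to 0.878). The interval lay below 1 for 27 of the 36 and above 1 for none. Among all 7515 genes with at least 20 summed reads, 11.3% had an interval below 1 and 11.3% above. Depth matters to that count, since narrow intervals come with many reads. The share was 39.9% below and 26.7% above among the 596 genes with at least 500 summed reads. It was 45.0% below among the 240 genes in the subunits' own range of 974 to 3612 summed reads. Both of these sets of genes include the 36 subunits themselves. The median log2 ratio of the subunits was -0.20, against 0.00 over all genes and -0.11 over those 240.

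The differences were small. Of all 54 members, 11 were at least 1.2-fold lower with an interval that excluded 1, against 10.3% of all genes, or 27.0% of those with at least 500 summed reads. Another 2 were at least 1.2-fold higher, against 10.8% of all genes. None reached 2-fold in either direction, which 4.07% of all genes did downward and 4.18% upward.

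The size of the difference depended on the scaling. As a share of all reads, complex I subunits took 2.02% (2.00 to 2.04) of the control and 1.98% (1.95 to 2.00) of the cold library, so by total counts their ratio was 0.979. Under TMM, 46 of the 54 members had a log2 ratio below 0 and 8 above. With DESeq2 size factors the split was 47 and 7, and with total counts 30 and 24. By total counts 3 members were at least 1.2-fold lower, against 5.87% of all genes, and likewise 3 without mitochondrially encoded genes, against 6.80%. Total counts also moved the median log2 ratio of all genes up by 0.18, and total counts without mitochondrially encoded genes by 0.13. A scaling moves every gene alike, so the distance of the subunits from the median of all genes is the same under each and is 1 observation.

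**Figure D1:**
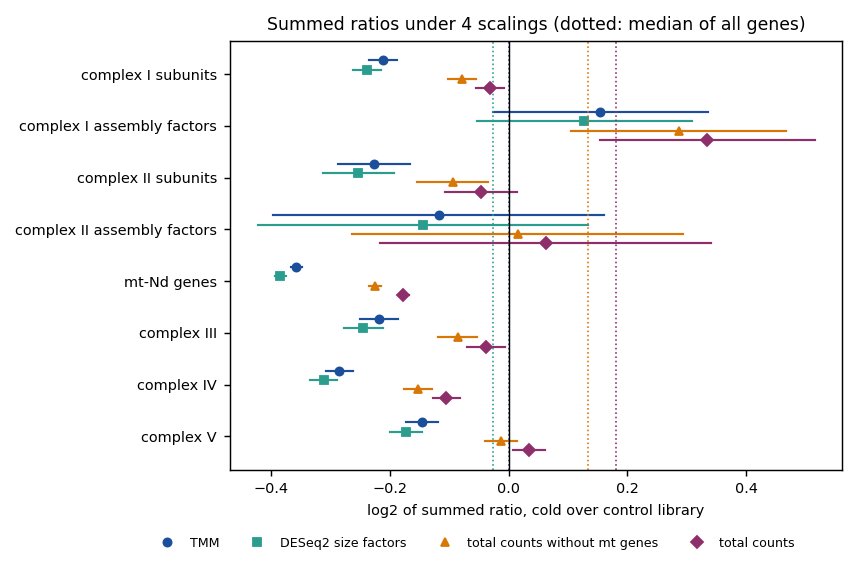
Summed log2 ratio of cold to control (horizontal axis) for each gene group (vertical axis) under 4 scalings, shown as marker shapes, with 95% counting intervals as bars and the median of all genes under each scaling as a dotted line of the same colour. Each scaling shifts all groups and its dotted line together, so the groups keep their places relative to the line while their side of 0 changes for complex V and the complex II assembly factors.

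The 7 nuclear core subunits carry the flavin and the iron-sulfur clusters. They had 6315 control and 4432 cold reads, a summed ratio of 0.865 (0.833 to 0.899), or 0.980 (0.943 to 1.02) by total counts. Under TMM 6 of 7 intervals lay below 1, against 11.3% of all genes and 39.9% of those with at least 500 summed reads. Ndufv1 (chr19:4007384-4012806) binds NADH and the flavin, and had 921 control and 664 cold reads, a ratio of 0.889 (0.803 to 0.983), or a log2 ratio of 0.01 by total counts. Ndufv2 (chr17:66078638-66101559), an iron-sulfur subunit beside it, had 1225 and 928 reads and a ratio of 0.934 (0.857 to 1.02), the exception among the core. Ndufs1 (chr1:63143596-63176833), the largest subunit, had 600 and 374 reads and a ratio of 0.769 (0.674 to 0.876). These genes of the NADH-oxidizing tip thus spanned nearly the whole range of the core.

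Other core genes lie toward the ubiquinone site. Ndufs3 (chr2:90894634-90904827), near the quinone pocket, had 763 and 542 reads and a ratio of 0.876 (0.783 to 0.979). Ndufs7 (chr10:80249121-80256794), which holds the last cluster before ubiquinone, had 933 and 681 reads and a ratio of 0.900 (0.814 to 0.995), or a log2 ratio of 0.03 by total counts. Ndufs8 (chr19:3908863-3912774), which holds the clusters before that one, had 706 and 439 reads and a ratio of 0.767 (0.679 to 0.865), the lowest of the core.

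Accessory subunits stood at the ratio of the core within counting error. The 29 accessory genes had 28012 control and 19616 cold reads, a ratio of 0.864 (0.848 to 0.879), and the core ratio divided by the accessory ratio was 1.00 (0.960 to 1.05). This quotient does not depend on the scaling. By place in the enzyme, the 9 matrix arm accessory genes had a summed ratio of 0.860 (0.830 to 0.892), the 9 of the proximal membrane arm 0.886 (0.857 to 0.917) and the 10 of the distal membrane arm 0.852 (0.828 to 0.878). The matrix arm against the membrane arm gave 0.996 (0.962 to 1.03), and the distal against the proximal part 0.962 (0.920 to 1.01), so neither quotient differed from 1 beyond counting error. Ndufab1, the mitochondrial acyl carrier protein, which sits in both arms and also serves fatty acid synthesis, had 1619 and 1104 reads and a ratio of 0.841 (0.778 to 0.908).

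**Figure D2:**
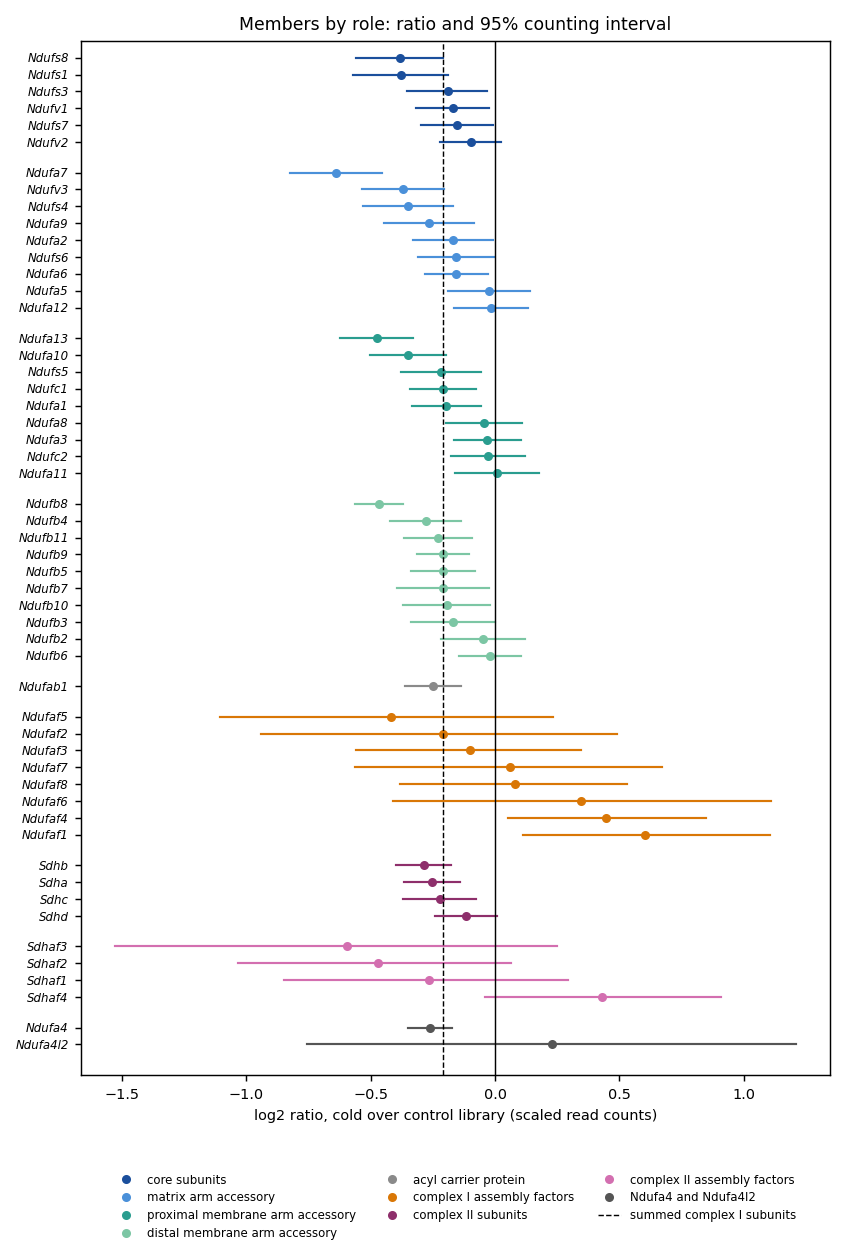
Log2 ratio of cold to control (horizontal axis, TMM-scaled counts) for 53 members (vertical axis, coloured by role), with 95% counting intervals as bars. Most subunits cluster around the dashed line of the summed complex I subunits, Ndufa7 lies farthest left among subunits, and the assembly factors have wide intervals.

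Within complex I the genes stood close together. The standard deviation of the log2 ratio over the 36 subunits was 0.147, against a median counting error of 0.076. Over the 240 genes in the same range of reads, the subunits included, it was 0.672. To compare subunits without any scaling, each was set against the sum of the other 35. On that measure 4 were lower than the rest beyond counting error, 7 were higher and 25 were neither.

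Ndufa7, Ndufa13, Ndufb8 and Ndufs8 were the 4 below the rest. Ndufa7 (chr17:33824572-33838317), a matrix arm accessory subunit, had 709 control and 369 cold reads. Its ratio of 0.642 (0.564 to 0.729) was the lowest of the 36, and it stood at 0.739 (0.651 to 0.839) of the other subunits. Ndufa13 (chr8:69894180-69902558), also known as Grim19 and placed at the foot of the membrane arm, had 1026 and 598 reads, a ratio of 0.719 (0.649 to 0.796). Ndufb8 (chr19:44548572-44555440), a distal membrane arm subunit, had 2276 and 1336 reads, a ratio of 0.724 (0.676 to 0.775). Its stretch of promoter is printed above. Ndufs8 was only just below the rest, at 0.886 (0.785 to 0.999). Ndufs1 completed the 5 lowest ratios, at 0.888 (0.780 to 1.01) of the other subunits.

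At the other end, the 5 highest ratios belonged to Ndufa11, Ndufa12, Ndufb6, Ndufa5 and Ndufc2. Ndufa11 (chr17:56717767-56722141), a membrane arm subunit, had 656 and 535 reads, a ratio of 1.01 (0.895 to 1.13). Ndufa12 (chr10:94198720-94221443), which takes the place of the assembly factor Ndufaf2 in the finished enzyme, had 831 and 666 reads and a ratio of 0.988 (0.891 to 1.10). Ndufb6 (chr4:40270591-40279421) of the distal membrane arm had 1196 and 956 reads and a ratio of 0.986 (0.904 to 1.07). These genes were near equal in both libraries under TMM.

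Ndufa5 (chr6:24518666-24528013) of the matrix arm had 684 and 546 reads, a ratio of 0.984 (0.878 to 1.10). Ndufc2 (chr7:97400003-97407802) of the membrane arm had 822 and 654 reads, a ratio of 0.981 (0.884 to 1.09). With Ndufa3 (1019 and 809 reads) and Ndufa8 (804 and 632), these 5 formed the 7 subunits above the rest, and each stood at 1.13 to 1.17 times the other subunits. Ndufa11, Ndufa3, Ndufa8 and Ndufc2 were of the proximal membrane arm, Ndufa5 and Ndufa12 of the matrix arm, and Ndufb6 of the distal membrane arm. None was a core subunit. Across the 36 subunits, the ratio had a Spearman correlation of -0.14 with the length of the most abundant transcript, as a description across genes of the same libraries, and of 0.17 over 2672 genes with at least 100 summed reads.

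Complex I subunit genes differed in level, from 593 to 2276 control reads. In RPM (the usual library-scaled read count, here after TMM), Ndufb8 had the highest control level, with 1427, and 1033 in the cold library. Ndufb9 followed with 1135 and 982, and the lowest was Ndufb7 with 372 and 322. Reads were of single molecules, so these levels were not divided by transcript length. Reads that do not reach the 5′ end were counted like whole ones. The plot of levels in both libraries gives RPM, without length, and is for comparing the libraries within a gene.

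**Figure D3:**
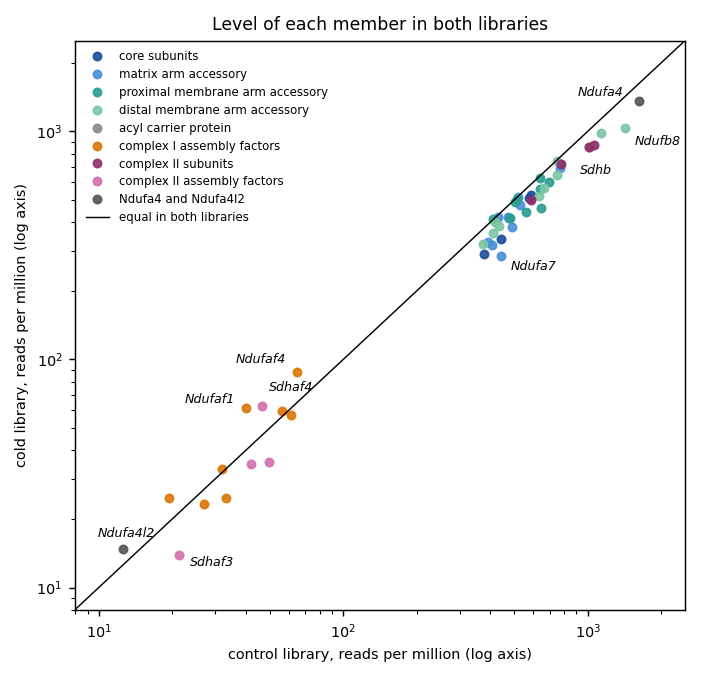
Level of members in the control library (horizontal axis) and the cold library (vertical axis), in RPM after TMM scaling on log axes, with 1 point for each of the same 53 genes and a line where both are equal. Complex I subunits, from 372 to 1427 RPM in the control library, lie just below the line or, for Ndufa11, on it, and the assembly factors lie lower, on both sides of it.

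As a sum, assembly factors of complex I did not share the lower ratio of the subunits. The 8 Ndufaf genes had 533 control and 481 cold reads, a summed ratio of 1.11 (0.982 to 1.26). Their median log2 ratio was 0.07, against 0.00 over all genes, with 3 of the 8 below 0 and 5 above. The interval left out 1 by total counts, at 1.26 (1.11 to 1.43), but total counts also moved the median log2 ratio of all genes up by 0.18. It left out 1 as well for the factors with at least 100 summed reads, at 1.195 (1.03 to 1.39). That filter kept only Ndufaf1, Ndufaf3, Ndufaf4 and Ndufaf8, so it describes a part of the set. Under TMM no interval of the 8 lay below 1 and 2 lay above, against 11.3% of all genes. Their ratio divided by that of the subunits was 1.29 (1.14 to 1.46), and 1.204 (1.05 to 1.39) without the gene with the most reads on each side. That left out Ndufaf4 but kept Ndufaf1, the other gene with an interval above 1, and the quotient without both was not tested. Depth limits what can be said of single factors, since each had between 30 and 114 reads in a library.

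Ndufaf1 (chr2:119655446-119662827), a chaperone of the complex that assembles part of the membrane arm, had 64 and 79 reads, a ratio of 1.52 (1.08 to 2.15). Ndufaf4 (chr4:24898083-24905001) had 103 and 114 reads, a ratio of 1.36 (1.04 to 1.80). That count includes Ndufaf4-202, a transcript not annotated as coding, with 44 and 50 reads, or 42.7% of control and 43.9% of cold reads. Ndufaf4 works with Ndufaf3 (chr9:108565537-108567434) on the quinone-binding module, and Ndufaf3 had 98 and 74 reads, a ratio of 0.931 (0.679 to 1.27). The intervals of these partners overlap. With only the most abundant transcript, or only protein-coding transcripts, 1 member in place of 2 was at least 1.2-fold higher.

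The other factors had intervals on both sides of 1. Ndufaf2, which Ndufa12 replaces, had 43 and 30 reads, a ratio of 0.860 (0.521 to 1.40). Ndufaf5, which hydroxylates Ndufs7, had 53 and 32 reads, a ratio of 0.745 (0.465 to 1.18), while its partner Ndufaf8 had 90 and 77, a ratio of 1.06 (0.768 to 1.45). Ndufaf6 had 31 and 32 reads, a ratio of 1.27 (0.752 to 2.16). Ndufaf7, a protein arginine methyltransferase, had 51 and 43 reads, a ratio of 1.04 (0.676 to 1.59). A difference of the size seen in the subunits was not detectable for any of them at this depth.

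Assembly factors without an Ndufaf symbol were near equal in both libraries as a sum. The 11 with reads had 980 control and 786 cold reads, a ratio of 0.989 (0.899 to 1.09), or 1.12 (1.02 to 1.23) by total counts. Since total counts also moved the median log2 ratio of all genes up by 0.18, the latter is no rise above the typical gene. Under TMM the median log2 ratio of the 11 was 0.09, with 2 intervals below 1, against 11.3% of all genes, and none above. Against the subunits the quotient was 1.14 (1.04 to 1.26). Without Tmem70 and Ndufb8, the genes with the most reads on each side, it was 1.08 (0.964 to 1.202), an interval that holds 1. The 2 intervals overlap, and whether the difference rests on these genes was not tested. Tmem70, also known for the assembly of ATP synthase, had 234 and 217 reads. Dmac1 was the lowest with at least 50 summed reads, with 81 and 45 reads and a ratio of 0.685 (0.465 to 0.998). Nubpl, which delivers iron-sulfur clusters to complex I, had 27 and 7 reads and is the other interval below 1, named after its values were seen.

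Complex II subunits differed by as much as those of complex I. The 4 genes had 5487 control and 3804 cold reads, a ratio of 0.855 (0.820 to 0.891), with 3 of 4 intervals below 1, against 11.3% of all genes and 39.9% of those with at least 500 summed reads. By total counts the ratio was 0.968 (0.929 to 1.01), an interval that holds 1. Sdha (chr13:74322254-74350280), the flavoprotein that oxidizes succinate, had 1620 and 1102 reads, a ratio of 0.839 (0.776 to 0.906). Sdhb (chr4:140961203-140979193), the iron-sulfur subunit, had 1694 and 1126 reads, a ratio of 0.820 (0.759 to 0.884). Sdhb was the member of complex II at least 1.2-fold lower. Of the membrane anchors, Sdhc (chr1:171127165-171150603) had 933 and 649 reads, a ratio of 0.858 (0.775 to 0.949), and Sdhd (chr9:50596357-50603812) had 1240 and 927, a ratio of 0.922 (0.846 to 1.00). The ratio of complex I subunits divided by that of complex II subunits was 1.01 (0.967 to 1.06).

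Complex II assembly factors were too sparse to place. Together they had 254 control and 190 cold reads, a ratio of 0.922 (0.760 to 1.12), and none of the 4 intervals left out 1. Sdhaf1, which guides iron-sulfur clusters into Sdhb, had 67 and 45 reads, a ratio of 0.828 (0.555 to 1.23). Sdhaf3, which acts with it, had 34 and 18, a ratio of 0.653 (0.347 to 1.19). On the Sdha side, Sdhaf2, needed for attaching its flavin, had 79 and 46 reads, a ratio of 0.718 (0.488 to 1.05), and Sdhaf4, a chaperone of flavinated Sdha, had 74 and 81, a ratio of 1.35 (0.973 to 1.88). Against the complex II subunits the 4 stood at 1.08 (0.890 to 1.31).

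Ndufa4 (chr6:11900292-11907497) had the most reads of the 54 members, 2591 and 1755, a ratio of 0.835 (0.786 to 0.888). It could not be assigned to either complex by its ratio, which stood at 0.967 (0.908 to 1.03) of the complex I subunits and 1.02 (0.956 to 1.08) of the nuclear complex IV subunits. Ndufa4l2, known as a hypoxia-induced gene, had 20 and 19 reads. Adding both to the complex I subunits gave a summed ratio of 0.862.

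Under TMM the other respiratory complexes also had summed ratios below 1. Nuclear subunits of complex III had a summed ratio of 0.860 (0.841 to 0.880), those of complex IV 0.821 (0.808 to 0.834) and those of complex V 0.904 (0.887 to 0.921). By total counts complex III was at 0.974 (0.952 to 0.996), complex IV at 0.930 (0.915 to 0.945) and complex V above 1, at 1.02 (1.01 to 1.04). Against all 38 genes of complexes III to V, complex I subunits stood at 1.01 (0.990 to 1.03). Complex by complex, they stood at 1.00 (0.977 to 1.03) of complex III, 1.05 (1.03 to 1.08) of complex IV and 0.955 (0.932 to 0.979) of complex V. The last became 0.991 (0.965 to 1.02) without Ndufb8 and Atp5b, the genes with the most reads on each side. Without Ndufb8 and Atp5b, complex I stood at 1.03 (1.01 to 1.05) of complexes III to V.

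The mitochondrially encoded core subunits were lower by more as a sum, but not by their median. The 7 mt-Nd genes had 227116 control and 143802 cold reads, a ratio of 0.781 (0.776 to 0.786), and nuclear complex I subunits stood at 1.11 (1.09 to 1.13) relative to them, or 1.08 (1.06 to 1.10) without mt-Nd1 and Ndufb8. Their median log2 ratio was -0.21, against -0.20 for the nuclear subunits. Most reads came from mt-Nd1 (67334 and 38530 reads), with a ratio of 0.706, mt-Nd4 (59282 and 31674), with 0.659, and mt-Nd2 (52689 and 39762), with 0.931. The genes of this 1 genome did not keep together. The ratio was 0.835 for mt-Nd3, 0.865 for mt-Nd5 and 0.962 for mt-Nd6, and mt-Nd4l, with 558 and 704 reads, was the 1 above 1, at 1.56 (1.39 to 1.74). Mt-Nd4l and mt-Nd4 share a transcript. Their ratios, on opposite sides of 1, therefore also rest on how its reads were divided between the 2 annotated genes, which was not tested. All mt-Nd3, mt-Nd4 and mt-Nd4l values exclude reads given to near-identical nuclear copies. For mt-Nd3 that copy had 14638 and 9875 reads. Adding the copies, as chosen after seeing the data, moved no log2 ratio by more than 0.023.

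Other enzymes that reduce ubiquinone, listed with Etfa and Etfb, had ratios far apart from each other. Etfa and Etfb feed Etfdh and do not themselves reduce ubiquinone. The 8 genes had 4716 control and 3548 cold reads, a ratio of 0.928 (0.888 to 0.969), which by total counts turned to 1.05 (1.01 to 1.10). Etfb (1681 and 1270 reads) and Etfa had the most reads of the 8, so these sums rest largely on them. Etfdh, which takes electrons from fatty acid oxidation, had 733 and 638 reads, a ratio of 1.07 (0.964 to 1.195), and Etfa, which feeds it, had 1310 and 1128, a ratio of 1.06 (0.980 to 1.15). The glycerol-phosphate dehydrogenase Gpd2 had 826 and 445 reads, a ratio of 0.664 (0.591 to 0.746), below that of any complex II subunit. Sqor, which oxidizes sulfide, had 79 and 19 reads, and Chdh, which oxidizes choline, had 51 and 10. Their ratios were 0.297 (0.170 to 0.494) and 0.242 (0.109 to 0.482). Of the genes linked to supercomplexes, Cox7a2l had 281 and 277 reads, a ratio of 1.216 (1.03 to 1.44), and Higd2a 271 and 159, a ratio of 0.724 (0.591 to 0.883).

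Direct RNA reads also show which annotated transcript each molecule was assigned to. For complex I subunits, 90.3% of control and 90.8% of cold reads were assigned to protein-coding transcripts, 4.94% and 4.77% to transcripts with a retained intron, and 4.13% and 3.93% to targets of nonsense-mediated decay. Over all nuclear protein-coding genes the retained-intron share was 3.53% and 3.32%, and the decay share 2.88% and 2.84%. Complex II had 98.4% of its reads on protein-coding transcripts in both libraries. These shares differed little between the libraries, and the noncoding part was held by a few genes.

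Ndufb10, a distal membrane arm subunit, had most of its reads on a transcript annotated with a retained intron, Ndufb10-202, with 68.8% of control and 63.1% of cold reads. Counting only its protein-coding transcripts turned the direction, with a log2 ratio for Ndufb10 of 0.07 in place of -0.19. Ndufa12 had 45.7% and 45.6% on Ndufa12-203, annotated as a target of nonsense-mediated decay. For both genes, the gene count therefore includes many molecules that are not annotated to make the subunit. How the authors assigned reads that match several transcripts is not stated in the labels.

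Shares could be compared for 93 transcripts of 34 members with at least 100 reads in each library, and 13 differed with an interval that excluded 0, or 14.0%, against 10.7% of transcripts over all genes. Ndufv2 had the largest difference among them. Its transcript Ndufv2-203, of 1697 nucleotides, held 58.6% of control and 67.8% of cold reads, 9.17 points more (5.06 to 13.2), and the shorter Ndufv2-201, of 927 nucleotides, held 41.2% and 32.2%. They differ at the 3′ end, since Ndufv2-203 reaches further, and in the annotated coding length, 744 and 456 bases. With only the most abundant transcript counted, the log2 ratio of Ndufv2 was 0.11 in place of -0.10.

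The other differing shares were smaller. Ndufv1-201, the main coding form of Ndufv1, held 62.0% and 68.4%. Ndufb10-201, the coding form of Ndufb10, held 29.6% and 35.4%. Ndufs8-201 held 18.3% and 23.5%, with the same coding length of 636 bases as the main form Ndufs8-205. Each of these was higher in the cold library. The main form Ndufs8-205 held 63.9% and 58.3%, but the interval of that difference holds 0 (-11.4 to 0.22 points), so it is not one of the 13. Ndufb5-204 held 86.6% and 90.4% of its gene, and Ndufb5-203 held 4.28% and 2.03%. Ndufab1-201, which has a long 3′ end and 3479 nucleotides, held 9.57% and 12.5%, and Ndufab1-202 held 6.61% and 4.71%. Ndufa12-204 held 21.2% and 16.4%, and Ndufs1-213, a minor form, had 11 and 16 reads.

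The read-weighted mean annotated transcript length, a measure added after seeing the data, was longer in the cold library for 26 of the 34 members, 76.5%, against 55.4% of 980 genes. Its median change was 0.51% for the members and 0.05% over all genes. The count takes changes of any size, such as 0.019% for Ndufb9 and 0.015% for Sdhb, and no interval was computed. Annotated length is not the length of the reads, and whether read length differed between the libraries was not tested. A known pair of coding forms kept its balance within counting error. Ndufv3-201, the long form with a coding length of 1404 bases, held 26.3% (23.2 to 29.5) and 27.8% (23.9 to 32.0) of Ndufv3 reads, and the short form Ndufv3-202, of 312 coding bases, held 73.3% and 70.7%. In both libraries the short form was the main one.

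**Figure D4:**
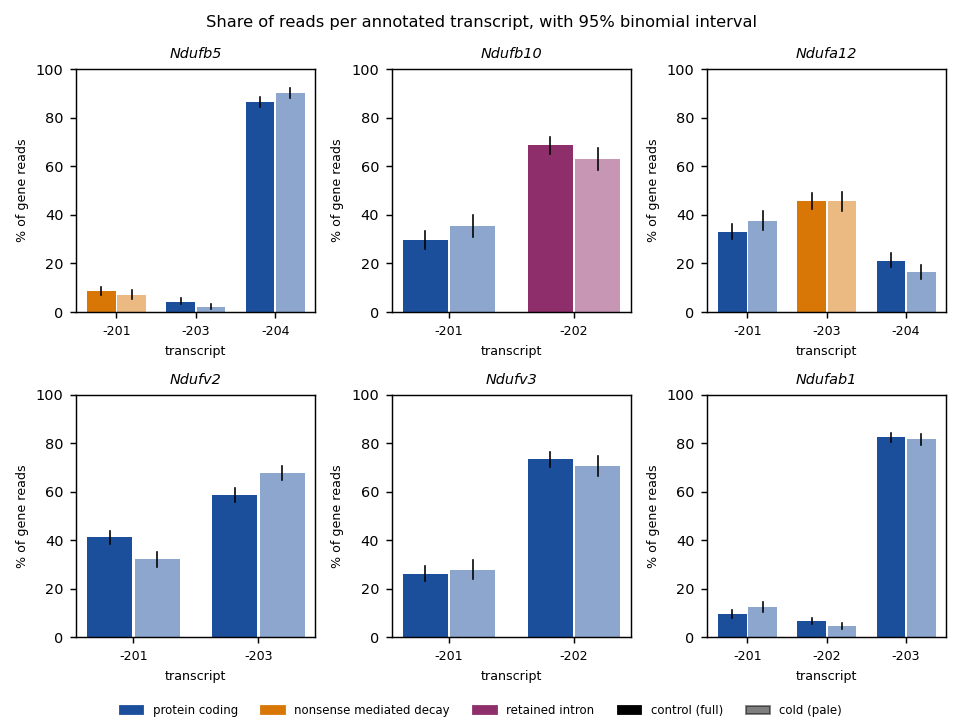
Share of a gene's reads assigned to each annotated transcript (vertical axis, percent) for 6 members, with full colour for the control and pale colour for the cold library, colours for the annotated transcript type and 95% binomial intervals as bars. A retained-intron transcript holds most reads of Ndufb10 in both libraries, and the bars of Ndufv2 show the shift from Ndufv2-201 to Ndufv2-203.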

How the data were processed

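Native poly(A)+ RNA was sequenced with the direct RNA kit, per the labels. Read counts per Ensembl transcript were deposited as whole numbers, without normalization by the authors. The submitters' processing notes name minimap2 and GRCm38. The sources used here do not give the aligner version, the annotation release or the treatment of multiply matching reads.

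Counts were summed to genes by transcript identifier without version in GENCODE mouse release M21, which gave the coordinates. Transcripts with no gene held 0.0571% of control and 0.0652% of cold reads. Library sizes (1698124 and 1215617 reads, 31.7% and 29.4% of them mitochondrially encoded) were scaled by TMM factors of 0.940 and 1.06 (edgeR 4.0.16, R 4.3.3). Ratio intervals came from the exact Clopper-Pearson limits on the cold fraction of a gene's summed reads, log2 ratios used a prior of 0.5 reads, and transcript shares a Newcombe interval. Quotients of summed ratios have intervals on the log scale. The code was tested on simulated data. DESeq2 1.42.0 gave alternative size factors.

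The members and lists were chosen with earlier results of these data known. Named were the core subunits, complex II, all assembly factors, the 5 highest and 5 lowest subunits with at least 100 summed reads, members with a differing transcript share, and from other lists up to 2 highest and 2 lowest genes with at least 50. Ndufa3, Ndufa8, Etfa, Etfb, Etfdh, Tmem70, Ndufb9, Ndufb7 and Nubpl were named after their values were seen. Near-identical copies were sought as transcripts sharing at least 50% of 31-base words. Gm4459, the copy of Ndufab1, had 0 and 1 reads, and Ndufb4c, the copy of Ndufb4, had 7 and 2. The other lists checked were markers of adipocytes in general (26924 and 25198 reads), white adipocytes (194 and 406), endothelium (741 and 800), macrophages (115 and 132) and erythrocytes (3867 and 2746). After TMM scaling the summed ratios were 1.15 (1.13 to 1.17) for adipocytes in general and 2.58 (2.17 to 3.08) for white adipocytes. They were 1.33 (1.20 to 1.47) for endothelium, 1.42 (1.09 to 1.83) for macrophages and 0.876 (0.834 to 0.920) for erythrocytes. The values of 1 member are not reported here and are not plotted; sums and counts include it.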

Additional observations from a re-analysis of the deposited data

How the results depend on the processing

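No paired analysis was possible because each group has 1 library, and leaving out a replicate was not possible for the same reason. The summed ratio of complex I subunits, 0.864, became 0.848 with DESeq2 size factors, 0.979 with total counts and 0.947 with total counts without mitochondrially encoded genes. For complex II as a whole, 0.858, the last 2 scalings gave 0.972 (0.933 to 1.01, so that the interval holds 1) and 0.940. The Ndufaf sum, 1.11, had an interval above 1 under them, at 1.26 (1.11 to 1.43) and from 1.08 to 1.38. These 2 scalings also moved the median log2 ratio of all genes up, by 0.18 and 0.13, so 1 is not the level of the typical gene under them. For the part of the Ndufaf genes with at least 100 summed reads the sum was 1.195, with an interval above 1. The median log2 ratio of complex I subunits was -0.022 with total counts. The count of members at least 1.2-fold lower, 11, was 3 under both scalings by total counts, and the count at least 1.2-fold higher, 2, was 1 with only the most abundant transcript and 1 with only protein-coding transcripts. Without the gene with the most reads on each side, complex I against complexes III to V was 1.03 in place of 1.01. The core of the NRF1 motif, GCGCANG, stood in 46.8% of member windows, against 18.5% of all genes. Filters of 1 and 100 summed reads and the reads of near-identical copies moved none of these values beyond its interval or by 1.5 times. Members with an interval below 1 turned to a log2 ratio above 0 by total counts for Ndufb3 (0.011), Ndufs7 (0.028), Ndufs6 (0.023), Ndufa6 (0.025), Ndufa2 (0.010) and Ndufv1 (0.011), with the most abundant transcript for Ndufs6 (0.0093) and with protein-coding transcripts for Ndufb10 (0.069). The cause was not tested. The scalings of the other groups were added after seeing the data. By total counts complex V (1.02), the list of other ubiquinone reductases with Etfa and Etfb (1.05) and the complex II assembly factors (1.04) turned above 1. Depth limits the assembly factors most.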

Other observations

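Ndufb1-ps (chr12:101968090-101977068) lies outside the members, because the annotation types it as a bidirectional promoter lncRNA although its symbol begins with Nduf. It had 696 control and 504 cold reads, in the range of the subunit genes. Of the processed pseudogenes with an Nduf symbol, Ndufb4c had 7 and 2 reads, and Ndufab1-ps, Ndufs6b and Ndufa11b had 0 in both libraries.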
